A study of Drosophila melanogaster with 23 samples.

Results

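Embryos of Drosophila melanogaster aged 11-14 h after egg laying were compared with embryos aged 8-11 h, across all genes and transcription start site clusters (TSCs). A TSC is a group of neighbouring start sites that the study treated as a promoter. The older block consisted of the collections of 11-12 h, 12-13 h and 13-14 h, and the younger block of the collections of 8-9 h, 9-10 h and 10-11 h. These are 6 of the 23 libraries of the series, chosen by the hour in their labels. All 6 came from whole embryos of strain y; cn bw sp, laid in population cages within 1 hour and then aged, with no treatment, so that the blocks differ by age alone as far as the labels say. The labels give hours and no morphological stage, and how many embryos entered a library was not given in the sources used here.

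Germ band retraction shortens the extended trunk of the embryo and leaves the dorsal side covered by the amnioserosa, a thin extraembryonic sheet. During dorsal closure the epidermis of both flanks is then drawn over the amnioserosa, with Jun kinase (JNK) and Dpp signalling in the leading edge cells and contraction of actomyosin. In the same part of embryogenesis most precursor cells stop dividing, myoblasts fuse into muscle fibres, neurons form synapses, and the epidermis begins to secrete a chitinous cuticle around the time of a pulse of the steroid hormone ecdysone.

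RNA was assayed by RAMPAGE, which sequences the 5' ends of capped transcripts, so that a value counts starts of transcripts and does not grow with transcript length. Values are RPM, in which the reads of a gene or TSC are scaled to the same total of reads in TSCs for each library. The 3 libraries at 11-14 h held 2466960, 438473 and 2743799 such reads, in order of age, and those at 8-11 h held 2664024, 4119650 and 3430783. In the shallow library of 12-13 h, 1 read was worth 2.28 RPM and the limit that a count of 0 allows, 3 reads, was 6.84 RPM, so its low values rest on few reads. Such limits cover counting error only. In whole embryos, fewer cells of a type and less RNA per cell cannot be told apart.

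Markers of embryos of another age were checked first. Over the 23 genes listed as maternal or germ plasm markers that the table holds, the summed level was 1589, 1384 and 1376 RPM at 11-14 h, against 1620.5, 1699 and 1854 RPM at 8-11 h, so the blocks did not overlap. Over 65 listed genes of larval and late cuticle, the sum was 1568, 2682 and 11044 RPM at 11-14 h, against 678, 245 and 617 RPM at 8-11 h. The youngest library thus carried more late cuticle RNA than the next one, much of it from Cpr47Eg, whose levels were 216, 31.9 and 282 RPM at 11-14 h, against 304, 19.7 and 14.9 RPM at 8-11 h. Of the maternal genes, bcd had 73.4, 36.5 and 122 RPM at 11-14 h, against 126, 113 and 76.4 RPM at 8-11 h. The germ plasm gene osk had 13.0, 22.8 and 14.9 RPM at 11-14 h, against 12.0, 17.7 and 14.9 RPM at 8-11 h. The blocks overlapped in Cpr47Eg, bcd and osk, which had no slope call. Of 75 genes for cytoplasmic ribosomal proteins, 0 to 3 in each library lay at least 4-fold below their own median over the 6 libraries, the most at 8-9 h. The part of these single-library departures in the results was not tested.

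Genes and TSCs with a mean of at least 10 RPM over the 6 libraries were tested, which were 6116 of 10622 genes and 7110 of 24730 TSCs. The block means were compared with limma on log2(RPM + 1), with p-values adjusted by the Benjamini-Hochberg method and a threshold of 0.05. This test called 0 genes higher at 11-14 h (0% of those tested) and 1 lower (0.0164%), and 0 TSCs higher (0%) and 1 lower (0.0141%). The p-values nevertheless reached an unadjusted 0.05 for 827 genes higher and 816 lower, and 948 genes had an adjusted p under 0.1. DESeq2 on the recovered reads called 612 genes higher and 277 lower, whereas edgeR called 0 higher and 1 lower. The windows of a block are successive collections and not repeats of one age, so its spread contains the development within the block, and p-values measure only the spread between these libraries.

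The same 6 libraries were therefore also fitted with a straight line in time, in log2 units per hour. Rise and fall are used below for genes whose slope over 8-14 h passed an adjusted p of 0.05 in limma, a choice made after the count of the block test was known. By this test 727 genes rose (11.9% of those tested) and 501 fell (8.19%), and 814 TSCs rose (11.4%) and 576 fell (8.1%). Of the genes that rose, 629 lay in every 11-14 h library above every 8-11 h library, as did 997 of all genes tested (16.3%). Of those that fell, 408 lay below every 8-11 h library, as did 1172 of all genes tested (19.2%). Rankings below by largest rise, fall, gain or loss took only slope-called genes with a symbol whose blocks did not overlap. Lack of overlap in the ranked genes is therefore a rule of choice and no result. The shares of 11.9% and 8.19% are the background for every list below. The number of slope calls depended on the youngest libraries, with 625 genes called without 8-9 h and 780 without 9-10 h, against 1228 with all 6. Where leaving out 1 library moved the count of a list by more than 1.5 times, the count without it is given beside the list. The number listed stands in parentheses after the number of a list that was tested, and the others did not pass the filter or were not analysed here under their listed symbol. The filter used the mean of both blocks, so a gene near 0 in one block passed only through the other, and counts and medians over the tested members of a list are descriptions of those members alone.

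A slope does not place the change at 11 h. The largest step between neighbouring windows lay between 10-11 h and 11-12 h for 135 of the genes that rose and for 116 of those that fell. For 227 of the rising genes it lay 1 window earlier, and for 183 of the falling genes 1 window later. Log2 differences quoted below are block means at 11-14 h minus 8-11 h on the log2(RPM + 1) scale, which understates the change of low genes. Their median over all genes tested was -0.11, and it was 0.00 after scaling by the trimmed mean of M-values (TMM), a shift of 0.12. With TMM 853 genes rose and 334 fell, so that rises were 71.9% of the calls in place of 59.2%, and no call changed its sign.

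**Figure D1:**
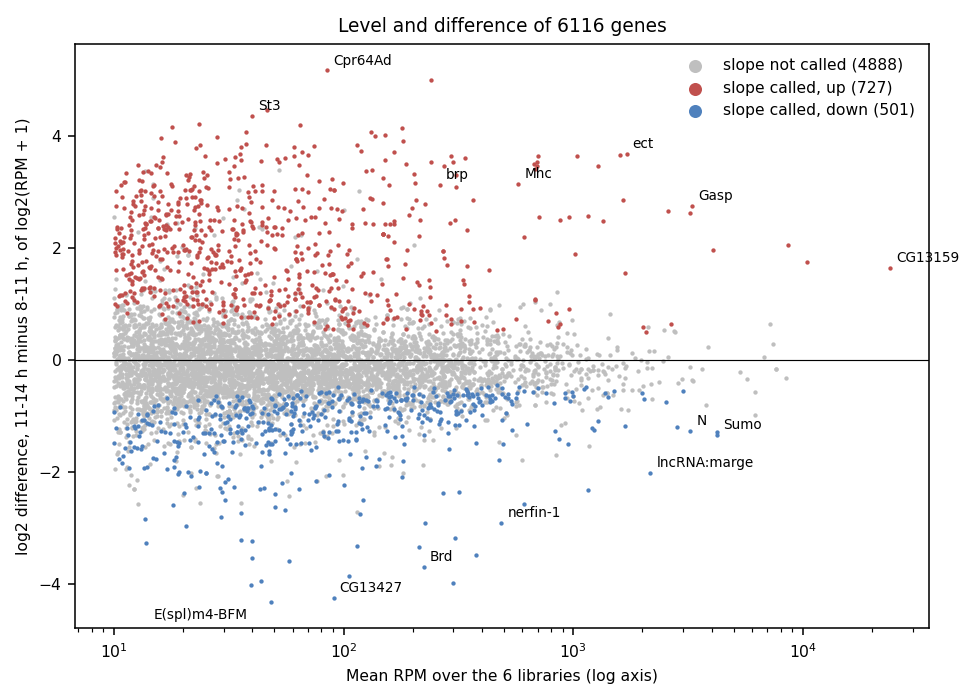
Log2 difference between the blocks, 11-14 h minus 8-11 h, against mean RPM over the 6 libraries (log axis) for 6116 genes. Red points are the 727 genes that rose over 8-14 h, blue points the 501 that fell, and grey points had no slope call. Rises reached a difference of 5.18 (Cpr64Ad) and falls reached -4.33 (E(spl)m4-BFM).

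The gene that the block test called was CG13427, on arm 2R, with 1 TSC at 2R:16426752-16426846 on the minus strand (release 5, as are all positions below). Its level was 6.89, 6.84 and 10.6 RPM at 11-14 h, against 222, 157 and 141 RPM at 8-11 h. The log2 difference was -4.26 ± 0.29 (SE), with an adjusted p of 0.00393 in limma. The older libraries are far below the younger ones, and the gene was highest at 3-4 h over the whole series (1768 RPM). The call held in 14 of 15 other settings, and the adjusted p of limma was 0.074 without the library of 9-10 h.

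Genes of the larval cuticle included the largest rises. Of 20 (76 listed) larval and late cuticle genes tested, 15 rose and 0 fell, and 17 higher and 0 lower had an unadjusted p under 0.05 between blocks. Over all genes tested 11.9% rose and 8.19% fell. With no filter beyond 1 read, 26 of 61 rose. The median log2 difference of the tested members was 3.39, beside -0.11 over all genes tested, and 15 to 17 rose when 1 library was left out. Cpr64Ad encodes a cuticle protein of the chitin-binding RR family. Its level was 48.2, 132 and 313 RPM at 11-14 h, against 0, 1.94 and 13.7 RPM at 8-11 h (limma slope, adjusted p = 0.000144). Cpr65Ea, of the same family, had 217, 310.2 and 852 RPM at 11-14 h, against 0.751, 27.4 and 34.1 RPM at 8-11 h (limma slope, adjusted p = 0.000956). Cpr51A had 73.0, 228 and 734 RPM at 11-14 h, against 4.50, 15.5 and 38.5 RPM at 8-11 h (limma slope, adjusted p = 0.000144). In each of these the lowest library of the older block exceeded the highest of the younger block, which the ranking of rises required. Signal was also present before 8 h. At 7-8 h Cpr64Ad had 20.9 RPM, above every library of 8-11 h. Cpr65Ea had 81.2 RPM at 3-4 h and 33.5 RPM at 7-8 h, and Cpr51A had 18.6 and 15.9 RPM. The reason was not tested.

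Tweedle genes encode another group of cuticle proteins. TwdlE had 31.2, 82.1 and 261 RPM at 11-14 h, against 2.63, 5.58 and 12.0 RPM at 8-11 h (limma slope, adjusted p = 0.000224). TwdlM had 22.7, 25.1 and 114 RPM at 11-14 h, against 0.751, 3.64 and 1.17 RPM at 8-11 h (limma slope, adjusted p = 0.00487). Ccp84Ag, of a cluster of cuticle genes on arm 3R, had 15.0, 20.5 and 56.5 RPM at 11-14 h, against 0, 1.94 and 3.21 RPM at 8-11 h (limma slope, adjusted p = 0.00076). Libraries of the blocks did not overlap for TwdlE, TwdlM or Ccp84Ag, and all were highest in the series at 16 h or later. TwdlM also had 18.4 RPM at 7-8 h, above every library of 8-11 h. The listed cuticle genes tested but not called were Cpr47Eg, Cpr49Ac, Cpr78Cc, Ccp84Ad and Twdlbeta.

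Osiris genes encode proteins of cuticle-forming cells and lie mostly in a cluster on arm 3R. Of 10 (24 listed) tested, 9 rose and 0 fell, with 9 higher and 0 lower at an unadjusted p under 0.05 between blocks, and their median log2 difference was 3.24. With no filter beyond 1 read, 12 of 17 rose. Osi7 had 568, 746 and 2486 RPM at 11-14 h, against 42.4, 66.3 and 266 RPM at 8-11 h (limma slope, adjusted p = 0.000252). Osi6 had 431, 324 and 871 RPM at 11-14 h, against 23.3, 53.6 and 147 RPM at 8-11 h (limma slope, adjusted p = 0.000857). Osi20 had 21.9, 43.3 and 124 RPM at 11-14 h, against 1.50, 1.70 and 8.74 RPM at 8-11 h (limma slope, adjusted p = 0.000382). Osi9 had 15.4, 77.5 and 219 RPM at 11-14 h, against 0.751, 3.88 and 17.2 RPM at 8-11 h (limma slope, adjusted p = 0.000404). Of these, only Osi9 overlapped between blocks, its level at 11-12 h being below that at 10-11 h.

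The machinery that makes and orders chitin was next. Of 18 (31 listed) genes tested, 14 rose and 0 fell, with a median log2 difference of 1.89 and 16 higher and 0 lower at an unadjusted p under 0.05 between blocks. Without the filter 16 of 25 rose. The summed level of the list was 7145, 12014 and 13312 RPM at 11-14 h, against 674, 1734 and 3588 RPM at 8-11 h. The chitin synthase gene kkv had 134, 112 and 287 RPM at 11-14 h, against 24.4, 54.4 and 120.1 RPM at 8-11 h (limma slope, adjusted p = 0.00571). The blocks overlapped, since the level at 12-13 h was below that at 10-11 h. Gasp, a chitin-binding protein of the tracheal lumen and epidermis, had 3897, 7202 and 5643 RPM at 11-14 h, against 289.8, 968 and 1818 RPM at 8-11 h (limma slope, adjusted p = 0.00187). The related obst-B had 70.1, 128 and 172 RPM at 11-14 h, against 6.01, 18.0 and 58.0 RPM at 8-11 h (limma slope, adjusted p = 0.00103). The chitin deacetylase genes serp and verm act on the luminal matrix of tracheal tubes. The mean of serp was 952 ± 226 RPM at 11-14 h and 265 ± 223 RPM at 8-11 h (SD, n = 3 each). That of verm was 226 ± 61.7 RPM at 11-14 h and 78.9 ± 56.5 RPM at 8-11 h (SD, n = 3 each). Other deacetylase genes behaved alike. Cda4 had 32.4, 68.4 and 94.0 RPM at 11-14 h, against 5.63, 17.2 and 30.0 RPM at 8-11 h (limma slope, adjusted p = 0.00121). Cda5 had 30.0, 52.5 and 90.0 RPM at 11-14 h, against 7.51, 10.4 and 14.0 RPM at 8-11 h (limma slope, adjusted p = 0.000815). Blocks did not overlap in serp, verm, Cda4 or Cda5. The secreted protein gene ect had 1446, 3083 and 4839 RPM at 11-14 h, against 94.6, 173 and 610.4 RPM at 8-11 h (limma slope, adjusted p = 0.000211), the largest log2 difference of the list at 3.68.

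Genes of the epidermal barrier, of tanning and of denticles gave a mixed picture, with 8 of 18 (27 listed) rising and 1 falling (median log2 difference 0.73). These shares of 44.4% and 5.56% stand beside 11.9% and 8.19% of all genes tested. Of the list, 5 rose and 1 fell without 8-9 h. The zona pellucida domain gene dyl, needed for the shape of cuticular projections, had 535, 1199.6 and 2132 RPM at 11-14 h, against 56.3, 45.1 and 261 RPM at 8-11 h (limma slope, adjusted p = 0.000628). A related gene, mey, had 79.0, 196 and 129.7 RPM at 11-14 h, against 10.5, 16.7 and 34.7 RPM at 8-11 h (limma slope, adjusted p = 0.00171). The gene ple, for tyrosine hydroxylase, which starts the route to the catechols that harden cuticle, had 104, 209.8 and 492 RPM at 11-14 h, against 17.6, 10.2 and 58.3 RPM at 8-11 h (limma slope, adjusted p = 0.00121). The 3 genes did not overlap between blocks. Conversely grh, a transcription factor that activates epidermal barrier genes and also acts in neuroblasts, fell. Its level was 43.0, 34.2 and 28.8 RPM at 11-14 h, against 119, 90.1 and 119 RPM at 8-11 h (limma slope, adjusted p = 0.0103). The denticle regulator ovo had 167, 119 and 80.5 RPM at 11-14 h, against 166, 115 and 187 RPM at 8-11 h, with no call (limma slope, adjusted p = 0.237).

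Several further genes among the 15 largest rises have no role given by the files. CG15740 on the X had 11.3, 70.7 and 191 RPM at 11-14 h, against 0.751, 2.18 and 1.75 RPM at 8-11 h (limma slope, adjusted p = 0.00159). CG13049 on 3L had 55.9, 63.9 and 251 RPM at 11-14 h, against 1.50, 3.40 and 12.5 RPM at 8-11 h (limma slope, adjusted p = 0.000286). CG30413 on 2R had 158, 237 and 618 RPM at 11-14 h, against 4.88, 13.4 and 49.6 RPM at 8-11 h (limma slope, adjusted p = 0.000211). The blocks of these 3 did not overlap, which the ranking required. St3, annotated as a sulfotransferase, had 35.3, 105 and 91.1 RPM at 11-14 h, against 0.375, 4.13 and 4.66 RPM at 8-11 h (limma slope, adjusted p = 0.000998). Phk-3, of the pherokine family, had 63.6, 180.2 and 506 RPM at 11-14 h, against 7.88, 3.88 and 27.4 RPM at 8-11 h (limma slope, adjusted p = 0.00105). CG2961, CG15212, CG3108 and CG14257 rose by log2 differences of 4.08, 4.03, 4.01 and 3.86, again without overlap by that rule. CG13066 and CG13051, neighbours by number on 3L, were less secure. CG13066 had 100.1, 9.12 and 109 RPM at 11-14 h, against 1.13, 2.18 and 4.37 RPM at 8-11 h (limma slope, adjusted p = 0.0383) and lost its call in 7 of 14 other settings, and CG13051 lost it in 4. In both the low value within the older block was that of 12-13 h. Both were also high at 7-8 h, with 137 and 101 RPM, above every library of 8-11 h. CG15212 likewise had 175 RPM at 7-8 h, and 207 RPM at 11-12 h against 109 RPM at 12-13 h. CG30413 and CG3108 did not share this, with 6.70 and 1.68 RPM at 7-8 h. Why single libraries stood out was not tested, so the levels of such genes at 11-12 h are uncertain.

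Genes of muscle contraction rose, while those of myoblast specification mostly fell or had no call. Of 26 (37 listed) sarcomere and contraction genes tested, 16 rose and 0 fell, with 17 higher and 0 lower at an unadjusted p under 0.05 between blocks. The number that rose was 16 with each library left out in turn, and 19 of 29 with no filter. Their median log2 difference was 1.87, and their summed level was 9467, 12578 and 19974 RPM at 11-14 h, against 2393, 3803 and 6194 RPM at 8-11 h. Mlc1 and Mlc2 encode myosin light chains. Mlc1 had 638, 1188 and 1865 RPM at 11-14 h, against 56.3, 80.8 and 247 RPM at 8-11 h (limma slope, adjusted p = 0.000224). Mlc2 had 188, 271 and 644 RPM at 11-14 h, against 19.9, 29.9 and 71.1 RPM at 8-11 h (limma slope, adjusted p = 0.000224). Both rose at every step from 8-9 h to 13-14 h and were highest in the series at 22-23 h.

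Other members of the list act in the thin filament or at the Z disc. The troponin C gene TpnC47D had 1249, 1831 and 2747 RPM at 11-14 h, against 155, 269 and 707 RPM at 8-11 h (limma slope, adjusted p = 0.000287). The troponin T gene up had 275, 408 and 799 RPM at 11-14 h, against 20.6, 27.2 and 107 RPM at 8-11 h (limma slope, adjusted p = 0.000287). Mlp60A, a muscle LIM protein gene, had 636, 1051 and 1945 RPM at 11-14 h, against 46.5, 65.8 and 283 RPM at 8-11 h (limma slope, adjusted p = 0.000259). None of these overlapped between blocks. Mhc, for the muscle myosin heavy chain, had 125, 1327 and 1737 RPM at 11-14 h, against 29.3, 82.3 and 164 RPM at 8-11 h (limma slope, adjusted p = 0.0019). Here the library of 11-12 h stood below that of 10-11 h, so the blocks overlapped. Other genes of the list that rose were Tm2, TpnC73F, bt, Prm, Mf, Msp300, Strn-Mlck, Actn, Mp20 and Mlp84B. Those tested without a call were Mlc-c, Act57B, Act87E, Tm1, sls, Zasp66, Argk1, SERCA, tmod and cpb.

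Among 28 (39 listed) genes of myogenic specification and myoblast fusion 2 rose and 8 fell (median log2 difference -0.68). These shares of 7.14% and 28.6% stand beside 11.9% and 8.19% of all genes tested. With 1 library left out, 0 rose and 6 fell without 8-9 h, 1 rose and 5 fell without 9-10 h, 1 rose and 7 fell without 10-11 h or 11-12 h, and 1 rose and 6 fell without 13-14 h. Mef2, a transcription factor of muscle differentiation, had 318, 265 and 194 RPM at 11-14 h, against 885, 704 and 595 RPM at 8-11 h (limma slope, adjusted p = 0.00103). The gene lmd, a regulator of fusion-competent myoblasts, had 19.9, 4.56 and 5.10 RPM at 11-14 h, against 92.3, 46.6 and 46.3 RPM at 8-11 h (limma slope, adjusted p = 0.00181). The gene sing, for a membrane protein needed for fusion, had 40.9, 6.84 and 6.92 RPM at 11-14 h, against 121, 103 and 53.6 RPM at 8-11 h (limma slope, adjusted p = 0.00188). The older libraries were below the younger ones in all 3, and each was highest in the series at 8-9 h. In lmd and sing the values at 12-13 h rest on 2 and 3 reads. The risers of the list were if, an integrin subunit gene of muscle attachment, and stumps, an adaptor of fibroblast growth factor signalling that is also on the tracheal list.

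**Figure D2:**
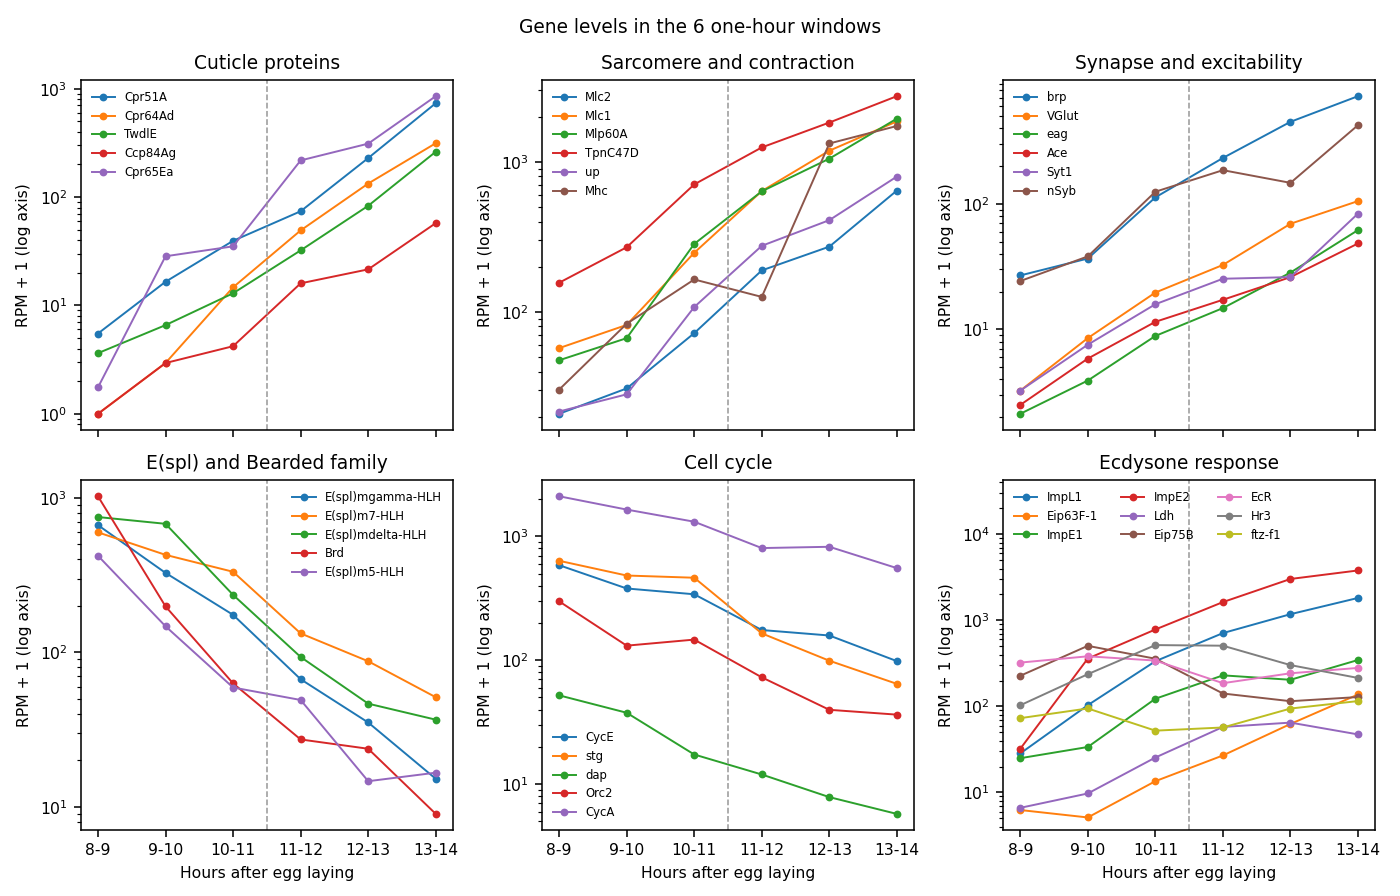
RPM + 1 (log axis) of named genes in the 6 windows from 8-9 h to 13-14 h, with a dashed line between the younger and the older block. Cuticle, sarcomere and synapse genes climb over the windows, E(spl) and Bearded family and cell cycle genes decline, and the ecdysone panel holds both risers such as ImpE2 (2819 against 391 RPM, older block first) and genes without a call such as EcR (235 against 348 RPM).

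Most tested genes of the working synapse rose. Of 25 (46 listed) genes of synaptic vesicles, transmitters and ion channels tested, 20 rose and 0 fell, with 20 higher and 0 lower at an unadjusted p under 0.05 between blocks. Their median log2 difference was 2.21, 17 to 21 rose with 1 library left out, and 31 of 43 rose with no filter. The active zone scaffold gene brp had 231, 449 and 719.8 RPM at 11-14 h, against 25.9, 35.7 and 112 RPM at 8-11 h (limma slope, adjusted p = 0.000224). The vesicular glutamate transporter gene VGlut had 31.6, 68.4 and 104 RPM at 11-14 h, against 2.25, 7.52 and 18.7 RPM at 8-11 h (limma slope, adjusted p = 0.000292). The potassium channel gene eag had 13.8, 27.4 and 60.9 RPM at 11-14 h, against 1.13, 2.91 and 7.87 RPM at 8-11 h (limma slope, adjusted p = 0.000414). Levels climbed in every successive window for all 3.

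Further members that rose act in transmitter release or breakdown. The synaptobrevin gene nSyb had 184, 146 and 423 RPM at 11-14 h, against 23.3, 37.1 and 124 RPM at 8-11 h (limma slope, adjusted p = 0.00215). The calcium sensor gene Syt1 had 24.3, 25.1 and 82.7 RPM at 11-14 h, against 2.25, 6.55 and 14.9 RPM at 8-11 h (limma slope, adjusted p = 0.00114). Ace, for acetylcholinesterase, had 16.2, 25.1 and 47.4 RPM at 11-14 h, against 1.50, 4.85 and 10.5 RPM at 8-11 h (limma slope, adjusted p = 0.00086). The blocks did not overlap in these, although the levels of nSyb and Syt1 at 12-13 h were no clear step up from 11-12 h. The members tested without a call were Syx1A, unc-13, Gad1, Csp and Cadps.

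General neuronal markers were divided, with 4 of 23 (26 listed) rising and 4 falling (17.4% each, beside 11.9% and 8.19% of all genes tested). Their median log2 difference was -0.08 and turned to 0.03 with TMM, under which 4 rose and 1 fell. Among the fits with 1 library fewer, 3 rose and 0 fell without 8-9 h, 4 rose and 1 fell without 9-10 h, 10-11 h, 11-12 h or 13-14 h, and 5 rose and 2 fell without 12-13 h. The gene robo3, for a receptor of the midline repellent Slit, had 45.8, 66.1 and 82.0 RPM at 11-14 h, against 3.75, 9.95 and 27.4 RPM at 8-11 h (limma slope, adjusted p = 0.00114). The gene nrv3, for a neuronal subunit of the sodium pump, had 52.7, 43.3 and 114 RPM at 11-14 h, against 5.63, 6.31 and 14.6 RPM at 8-11 h (limma slope, adjusted p = 0.00144). The microtubule protein gene futsch had 109.9, 95.8 and 141 RPM at 11-14 h, against 16.5, 27.7 and 60.6 RPM at 8-11 h (limma slope, adjusted p = 0.00275). These did not overlap between blocks. The elav gene, the classic marker of postmitotic neurons, had 92.8, 70.7 and 59.0 RPM at 11-14 h, against 116, 122 and 113 RPM at 8-11 h (limma slope, adjusted p = 0.0355), and lost its call in 9 of 14 other settings. Of 10 (17 listed) glial markers tested, 0 rose and 1 fell (10%, beside 8.19% of all genes tested), the one being pnt. Without 8-9 h, 9-10 h, 11-12 h, 12-13 h or 13-14 h, 0 rose and 0 fell. The call of pnt was lost in 10 of 14 settings.

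Many genes of neural precursors fell. Of 26 (33 listed) tested, 1 rose and 16 fell, with 0 higher and 18 lower at an unadjusted p under 0.05 between blocks and a median log2 difference of -1.41. The number that fell ranged over 11 to 16 with 1 library left out and was 17 of 31 with no filter. The proneural genes ac and l(1)sc encode transcription factors that select neural precursors. For ac the level was 7.30, 6.84 and 1.82 RPM at 11-14 h, against 109, 35.7 and 14.9 RPM at 8-11 h (limma slope, adjusted p = 0.00086). For l(1)sc it was 8.11, 2.28 and 1.09 RPM at 11-14 h, against 66.4, 23.8 and 7.29 RPM at 8-11 h (limma slope, adjusted p = 0.00144), and the blocks overlapped because the level at 11-12 h exceeded that at 10-11 h. The gene mira, for the adaptor that sends fate determinants into the daughter of a neuroblast, had 19.1, 9.12 and 7.65 RPM at 11-14 h, against 63.8, 41.8 and 28.0 RPM at 8-11 h (limma slope, adjusted p = 0.00105). The gene pon, which also acts in asymmetric division, had 26.8, 25.1 and 11.3 RPM at 11-14 h, against 99.8, 47.3 and 53.9 RPM at 8-11 h (limma slope, adjusted p = 0.00329). Older libraries were below younger ones in both mira and pon. The gene nerfin-1, for a zinc finger protein of newly born neurons, had 246, 61.6 and 88.6 RPM at 11-14 h, against 927, 845 and 750.3 RPM at 8-11 h (limma slope, adjusted p = 0.00464). The exception was vnd, a homeodomain gene of the ventral neuroectoderm, which rose. Its level was 15.0, 25.1 and 69.2 RPM at 11-14 h, against 13.5, 9.47 and 18.7 RPM at 8-11 h (limma slope, adjusted p = 0.0399), so the blocks overlapped. With 1 library left out, 0 rose and 11 fell without 9-10 h, and 0 rose and 12 fell without 10-11 h or 13-14 h.

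Notch-dependent genes included the largest fall. Of 20 (23 listed) E(spl), Bearded family and Notch pathway genes tested, 0 rose and 15 fell, with 0 higher and 16 lower at an unadjusted p under 0.05 between blocks. Their median log2 difference was -2.15, 15 of 20 fell with no filter, 11 to 15 fell with 1 library left out, and their summed level was 4300.0, 2586 and 2046 RPM at 11-14 h, against 11121, 7879 and 6514 RPM at 8-11 h. The E(spl) basic helix-loop-helix genes encode repressors that Notch signalling switches on. E(spl)mgamma-HLH had 66.1, 34.2 and 14.2 RPM at 11-14 h, against 665, 326 and 174 RPM at 8-11 h (limma slope, adjusted p = 0.000144). E(spl)mdelta-HLH had 92.4, 45.6 and 35.7 RPM at 11-14 h, against 750.4, 678 and 235 RPM at 8-11 h (limma slope, adjusted p = 0.000404). E(spl)m7-HLH had 132, 86.7 and 50.3 RPM at 11-14 h, against 597, 427 and 331 RPM at 8-11 h (limma slope, adjusted p = 0.000382). The decline ran through every window in all 3.

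Bearded family genes encode small inhibitors of Neuralized, a ligase that Notch ligands need for signalling. E(spl)m4-BFM had 12.2, 0 and 3.28 RPM at 11-14 h, against 152, 90.5 and 31.5 RPM at 8-11 h (limma slope, adjusted p = 0.00653). Brd had 26.3, 22.8 and 8.02 RPM at 11-14 h, against 1023, 198 and 62.1 RPM at 8-11 h (limma slope, adjusted p = 0.00081). Tom had 29.2, 2.28 and 2.55 RPM at 11-14 h, against 86.7, 75.2 and 43.1 RPM at 8-11 h (limma slope, adjusted p = 0.00369). Their blocks did not overlap, which the ranking of the largest falls required of all 3. The 0 of E(spl)m4-BFM at 12-13 h allows up to 6.84 RPM. The receptor gene N itself had 2786, 1672 and 1379.8 RPM at 11-14 h, against 5488, 4123 and 3973 RPM at 8-11 h (limma slope, adjusted p = 0.00178). The members without a call were E(spl)m6-BFM, E(spl)m8-HLH, E(spl)mbeta-HLH, Ser and hry.

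Other genes among the 15 largest falls included regulators of the early embryo that were still detected at 8-11 h. The gap gene hkb had 12.6, 0 and 5.83 RPM at 11-14 h, against 86.3, 70.6 and 62.1 RPM at 8-11 h (limma slope, adjusted p = 0.0305). The pair-rule gene ftz, which is also used in neural precursors, had 6.49, 6.84 and 3.64 RPM at 11-14 h, against 102, 64.8 and 30.9 RPM at 8-11 h (limma slope, adjusted p = 0.00109). The sex determination gene sisA, which also acts in the yolk, had 8.51, 0 and 6.20 RPM at 11-14 h, against 137, 92.2 and 18.9 RPM at 8-11 h (limma slope, adjusted p = 0.0186). At 12-13 h hkb and sisA had no read, which allows up to 6.84 RPM. The transporter gene Oatp58Dc had 45.0, 16.0 and 7.65 RPM at 11-14 h, against 303, 203 and 108 RPM at 8-11 h (limma slope, adjusted p = 0.000224). CG4440 had 87.2, 36.5 and 21.9 RPM at 11-14 h, against 1399, 575 and 133 RPM at 8-11 h (limma slope, adjusted p = 0.000259). CG34224, CG15480, link and CG18088 fell by log2 differences of -3.99, -3.87, -3.59 and -3.53. Genes that overlapped between blocks were not eligible for this ranking, so none of these overlapped.

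Many genes of the cell cycle and of DNA replication fell. Of 41 (47 listed) tested, 0 rose and 22 fell, with 0 higher and 25 lower at an unadjusted p under 0.05 between blocks and a median log2 difference of -0.95. The number that fell was 17 with TMM, 23 of 44 with no filter, 7 without the library of 8-9 h and 11 without that of 9-10 h. Cyclin E (CycE) drives entry into S phase and had 174, 157 and 97.3 RPM at 11-14 h, against 584, 379 and 339.9 RPM at 8-11 h (limma slope, adjusted p = 0.000894). The phosphatase gene stg, which triggers mitosis, had 164, 98.1 and 63.4 RPM at 11-14 h, against 634, 482 and 463 RPM at 8-11 h (limma slope, adjusted p = 0.000956). The gene dap, for an inhibitor of cyclin E, had 10.9, 6.84 and 4.74 RPM at 11-14 h, against 51.1, 36.7 and 16.3 RPM at 8-11 h (limma slope, adjusted p = 0.00113). An activator and an inhibitor of the cycle thus fell alike. Orc2, of the origin recognition complex, had 71.7, 38.8 and 35.4 RPM at 11-14 h, against 298, 130.1 and 146 RPM at 8-11 h (limma slope, adjusted p = 0.00147). Cyclin A (CycA), a mitotic cyclin, had 804, 823 and 553 RPM at 11-14 h, against 2108, 1646 and 1313 RPM at 8-11 h (limma slope, adjusted p = 0.00183). Every older library was below every younger one in the 5 genes.

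The list of germ band retraction and the amnioserosa holds mostly genes for transcription factors. Of 11 (14 listed) tested, 0 rose and 5 fell, with 0 higher and 4 lower at an unadjusted p under 0.05 between blocks and a median log2 difference of -0.95. The summed level of the list was 934, 944 and 944 RPM at 11-14 h, against 1527, 1476 and 1310.5 RPM at 8-11 h. The T-box gene Doc1, needed to maintain the amnioserosa, had 32.4, 13.7 and 13.8 RPM at 11-14 h, against 66.1, 46.8 and 41.1 RPM at 8-11 h (limma slope, adjusted p = 0.00468). The GATA factor gene srp had 88.4, 95.8 and 48.1 RPM at 11-14 h, against 227, 148 and 148 RPM at 8-11 h (limma slope, adjusted p = 0.00545). The related GATA gene pnr, which patterns the dorsal ectoderm, had 24.7, 18.2 and 13.8 RPM at 11-14 h, against 50.7, 48.3 and 35.9 RPM at 8-11 h (limma slope, adjusted p = 0.00482). In Doc1, srp and pnr the blocks did not overlap. Doc3 and Kr also fell, with log2 differences of -1.11 and -0.95, and their blocks overlapped. The members without a call were peb, ush, tup, Doc2, Egfr and RhoGAP71E.

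The U-shaped group genes peb and ush, whose loss blocks germ band retraction, had no call. For peb the level was 131, 144 and 87.5 RPM at 11-14 h, against 187, 143 and 165 RPM at 8-11 h (limma slope, adjusted p = 0.1), with the level at 12-13 h close to that at 9-10 h. For ush it was 30.8, 22.8 and 22.2 RPM at 11-14 h, against 47.3, 32.8 and 30.9 RPM at 8-11 h (limma slope, adjusted p = 0.0692), all older libraries being below the younger ones.

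More signalling genes of dorsal closure fell than rose. Of 23 (25 listed) JNK and Dpp pathway genes tested, 1 rose and 8 fell (median log2 difference -0.34). These shares of 4.35% and 34.8% stand beside 11.9% and 8.19% of all genes tested. The number that fell was 5 with TMM. Among the fits with 1 library fewer, 1 rose and 3 fell without 8-9 h, 1 rose and 4 fell without 9-10 h, and 1 rose and 2 fell without 13-14 h. The riser was scaf, a protease-like target of JNK signalling in the leading edge. Its level was 85.9, 103 and 168 RPM at 11-14 h, against 13.9, 38.1 and 74.6 RPM at 8-11 h (limma slope, adjusted p = 0.00277). The ligand gene dpp had 19.9, 22.8 and 7.65 RPM at 11-14 h, against 46.5, 38.1 and 45.2 RPM at 8-11 h (limma slope, adjusted p = 0.0207), and its call was lost in 4 of 14 settings. Dad, an inhibitor that Dpp signalling induces, had 68.5, 38.8 and 33.2 RPM at 11-14 h, against 108, 71.9 and 83.7 RPM at 8-11 h (limma slope, adjusted p = 0.015). The gene puc, the phosphatase that damps JNK signalling and its usual reporter, had 59.2, 36.5 and 55.8 RPM at 11-14 h, against 51.4, 77.2 and 85.4 RPM at 8-11 h (limma slope, adjusted p = 0.521). The levels of puc overlapped between blocks and gave no call. Genes of the JNK kinase cascade (slpr, Tak1, msn, hep, bsk) and the transcription factor genes Jra and kay had no call either. The transcription factor gene rib, which acts in epithelial movement, fell. It had 147, 52.5 and 60.5 RPM at 11-14 h, against 289, 305 and 234 RPM at 8-11 h (limma slope, adjusted p = 0.00512). The repressor gene aop, an antagonist of receptor tyrosine kinase and JNK outputs, had 232, 139 and 141 RPM at 11-14 h, against 388, 353 and 326 RPM at 8-11 h (limma slope, adjusted p = 0.00609).

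Of 20 (24 listed) genes of actomyosin and adhesion 1 rose and 4 fell (5% and 20%, beside 11.9% and 8.19% of all genes tested). With TMM 1 rose and 1 fell. With 1 library left out, 0 rose and 0 fell without 8-9 h, 1 rose and 0 fell without 9-10 h, 1 rose and 1 fell without 10-11 h, and 1 rose and 2 fell without 11-12 h or 13-14 h. The gene zip, for the heavy chain of nonmuscle myosin, was listed but not analysed here. The filamin gene cher rose, with 193, 212 and 207 RPM at 11-14 h, against 67.6, 102 and 155 RPM at 8-11 h (limma slope, adjusted p = 0.0119). Rok, the kinase that activates myosin, had 18.2, 22.8 and 14.6 RPM at 11-14 h, against 46.5, 48.5 and 22.4 RPM at 8-11 h (limma slope, adjusted p = 0.032). Cdc42, cno and arm also fell, but lost their calls in 7, 8 and 9 of 14 other settings. The myosin light chain gene sqh and the cadherin gene shg had no call, with block means of 395 against 403 RPM and 592 against 774 RPM (older block first).

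Ecdysone response genes were divided between risers and genes without a call. Of 19 (29 listed) tested, 5 rose and 1 fell (26.3% and 5.26%, beside 11.9% and 8.19% of all genes tested), with a median log2 difference of 0.07. With TMM 6 rose and 0 fell, whereas 4 rose and 3 fell without 8-9 h, 5 rose and 0 fell without 9-10 h or 12-13 h, and 6 rose and 0 fell without 13-14 h. ImpL1, ImpE1 and ImpE2 were found in cultured imaginal discs as genes that ecdysone induces. ImpE2 had 1629.9, 3026 and 3801 RPM at 11-14 h, against 31.2, 359 and 783 RPM at 8-11 h (limma slope, adjusted p = 0.00259). ImpL1 had 711, 1179 and 1822 RPM at 11-14 h, against 27.4, 102 and 334 RPM at 8-11 h (limma slope, adjusted p = 0.000434). ImpE1 had 229, 203 and 346 RPM at 11-14 h, against 24, 32.8 and 122 RPM at 8-11 h (limma slope, adjusted p = 0.0021). All were highest in the series at 13-14 h, and none overlapped between blocks. Eip63F-1, a calcium-binding protein gene, had 25.9, 61.6 and 137 RPM at 11-14 h, against 5.26, 4.13 and 12.5 RPM at 8-11 h (limma slope, adjusted p = 0.00086). Ldh, for lactate dehydrogenase, had 56.8, 63.9 and 46.3 RPM at 11-14 h, against 5.63, 8.74 and 24.5 RPM at 8-11 h (limma slope, adjusted p = 0.00931).

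The receptor and the nuclear receptor genes of the early response behaved otherwise. EcR, the ecdysone receptor gene, had 185, 242 and 279 RPM at 11-14 h, against 322, 381 and 340.2 RPM at 8-11 h (limma slope, adjusted p = 0.322). Eip75B, an early response nuclear receptor gene, had 140.3, 114 and 128 RPM at 11-14 h, against 226, 505 and 357 RPM at 8-11 h (limma slope, adjusted p = 0.0941). Both were below every younger library at 11-14 h, without a slope call, and the block test gave Eip75B a limma adjusted p of 0.0563. Hr3 peaked in the middle of the 6 windows, with 507, 301 and 213 RPM at 11-14 h, against 102, 236 and 515 RPM at 8-11 h (limma slope, adjusted p = 0.459). The later nuclear receptor gene ftz-f1 had 55.9, 93.5 and 114 RPM at 11-14 h, against 72.1, 93.7 and 51.3 RPM at 8-11 h (limma slope, adjusted p = 0.491), and its promoters are described below. Among genes for enzymes of ecdysteroid metabolism, only Cyp18a1, which inactivates the hormone, passed the filter. It rose, with 19.5, 31.9 and 57.6 RPM at 11-14 h, against 3.00, 3.40 and 10.8 RPM at 8-11 h (limma slope, adjusted p = 0.000838).

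Several matrix and blood cell products rose. Of 20 (27 listed) basement membrane and integrin genes tested, 8 rose and 0 fell, with 8 higher and 0 lower at an unadjusted p under 0.05 between blocks and a median log2 difference of 0.57. Among the fits with 1 library fewer, 5 rose and 0 fell without 8-9 h. Col4a1 and vkg encode the chains of collagen IV and are on the hemocyte list too, as are Ppn and Tig. Col4a1 had 37.3, 68.4 and 94.8 RPM at 11-14 h, against 5.26, 9.95 and 24.5 RPM at 8-11 h (limma slope, adjusted p = 0.000414). For vkg the level was 57.2, 70.7 and 135 RPM at 11-14 h, against 4.88, 16.3 and 40.5 RPM at 8-11 h (limma slope, adjusted p = 0.00117). Plod, for the enzyme that hydroxylates collagen lysines, had 176, 196 and 258 RPM at 11-14 h, against 53.7, 93.2 and 103 RPM at 8-11 h (limma slope, adjusted p = 0.00187). The blocks did not overlap. Tig, a matrix ligand of integrins in muscle attachment, had 30.4, 43.3 and 41.9 RPM at 11-14 h, against 0.375, 5.83 and 13.7 RPM at 8-11 h (limma slope, adjusted p = 0.00404). The laminin genes LanA and LanB1 had no call, with block means of 56.5 against 56.6 RPM and 772 against 888 RPM (older block first).

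On the hemocyte list 5 of 13 (22 listed) tested genes rose and 2 fell (38.5% and 15.4%, beside 11.9% and 8.19% of all genes tested). The risers were secreted products (vkg, Col4a1, Ppn, Glt and Tig), and those that fell were the regulator srp and the scavenger receptor gene crq. By contrast, 4 rose and 1 fell without 8-9 h, 9-10 h or 13-14 h, 5 rose and 1 fell without 10-11 h or 11-12 h, and 6 rose and 1 fell without 12-13 h. Of 29 (31 listed) genes of septate junctions, which seal epithelia, 4 rose and 1 fell. These shares of 13.8% and 3.45% stand beside 11.9% and 8.19% of all genes tested. Ssk and mesh, of the smooth type of junction, which is that of the gut, both rose. Ssk had 94.0, 116 and 177 RPM at 11-14 h, against 17.6, 38.6 and 75.2 RPM at 8-11 h (limma slope, adjusted p = 0.00145). For mesh the level was 40.1, 36.5 and 49.9 RPM at 11-14 h, against 1.50, 6.31 and 22.2 RPM at 8-11 h (limma slope, adjusted p = 0.00534). Nrx-IV, of the pleated type found in ectodermal epithelia, had 480.3, 376 and 405 RPM at 11-14 h, against 262, 361 and 394 RPM at 8-11 h, with no call (limma slope, adjusted p = 0.254). For septate junctions 6 rose and 1 fell with TMM, and 3 rose and 0 fell without 8-9 h, 4 rose and 0 fell without 9-10 h, and 4 rose and 2 fell without 12-13 h.

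Of 13 (18 listed) tracheal genes 4 rose and 3 fell (30.8% and 23.1%, beside 11.9% and 8.19% of all genes tested). Their median log2 difference of -0.11 turned to 0.01 with TMM. The risers were stumps and the luminal chitin genes serp, verm and Gasp described above, and those that fell were the transcription factor genes tgo, rib and kni. With 1 library left out, 3 rose and 1 fell without 9-10 h or 13-14 h. Of 19 (31 listed) genes of gut, salivary gland and Malpighian tubule 2 rose and 3 fell (10.5% and 15.8%). Without 8-9 h or 13-14 h, 1 rose and 3 fell. The midgut gene mex1 had 19.9, 36.5 and 26.2 RPM at 11-14 h, against 0.751, 4.61 and 4.96 RPM at 8-11 h (limma slope, adjusted p = 0.00482). Of 11 (23 listed) genes of fat body and gonad 3 rose and 2 fell (27.3% and 18.2%), whereas 1 rose and 1 fell without 8-9 h or 13-14 h. Adh, for alcohol dehydrogenase, had 10.5, 20.5 and 42.3 RPM at 11-14 h, against 2.25, 2.91 and 4.37 RPM at 8-11 h (limma slope, adjusted p = 0.00215). The lipoprotein gene apolpp had 1136, 1006 and 1092 RPM at 11-14 h, against 567, 627 and 619 RPM at 8-11 h (limma slope, adjusted p = 0.037). Libraries of the blocks did not overlap for mex1, Adh or apolpp, and the call of apolpp was lost in 5 of 14 settings.

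Patterning genes mostly declined or had no call. Of 21 (31 listed) segment polarity and Wnt genes 1 rose and 5 fell (4.76% and 23.8%, beside 11.9% and 8.19% of all genes tested). Their median log2 difference was -0.61. By contrast, 0 rose and 2 fell without 8-9 h or 9-10 h, 1 rose and 3 fell without 10-11 h, 0 rose and 4 fell without 11-12 h, and 0 rose and 3 fell without 12-13 h or 13-14 h. The Wnt gene wg was listed but not analysed here. The homeodomain gene en, which marks posterior compartments, had 66.9, 18.2 and 25.5 RPM at 11-14 h, against 158, 146 and 104 RPM at 8-11 h (limma slope, adjusted p = 0.00485). The Hedgehog pathway transcription factor gene ci had 159, 103 and 56.5 RPM at 11-14 h, against 291, 246 and 225 RPM at 8-11 h (limma slope, adjusted p = 0.00298). Of 12 (15 listed) Hox genes and cofactors 0 rose and 3 fell (0% and 25%). Those that fell were Antp, abd-A and ftz, whereas 0 rose and 1 fell without 13-14 h. Of 19 (21 listed) EGF receptor pathway genes 2 rose and 6 fell (10.5% and 31.6%), and with TMM 2 rose and 3 fell. Among the fits with 1 library fewer, 0 rose and 1 fell without 8-9 h, 1 rose and 4 fell without 9-10 h, 1 rose and 3 fell without 11-12 h, 1 rose and 5 fell without 12-13 h, and 2 rose and 2 fell without 13-14 h. The intramembrane protease gene ru, which releases EGF ligands, rose, with 40.1, 29.6 and 36.4 RPM at 11-14 h, against 2.25, 8.50 and 14.9 RPM at 8-11 h (limma slope, adjusted p = 0.00951). Of 11 (16 listed) cell death genes 0 rose and 3 fell (0% and 27.3%). With TMM 0 rose and 1 fell, and 0 rose and 0 fell without 8-9 h or with reads thinned to the shallowest library. The death inducer hid had 62.8, 52.5 and 45.6 RPM at 11-14 h, against 126, 101 and 88.9 RPM at 8-11 h (limma slope, adjusted p = 0.00625). The blocks of hid did not overlap, whereas rpr, another inducer, had 96.5, 125 and 76.9 RPM at 11-14 h, against 151, 154 and 109 RPM at 8-11 h, with overlap and no call (limma slope, adjusted p = 0.104).

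Broadly used genes were compared as a background. Of 75 genes for cytoplasmic ribosomal proteins 0 rose and 0 fell, as they did in edgeR and DESeq2, and 1 rose and 0 fell without 9-10 h, with 0 higher and 1 lower at an unadjusted p under 0.05 between blocks and a median log2 difference of -0.05 (0.07 with TMM). Of 57 (60 listed) nuclear genes of the respiratory chain 5 rose and 0 fell (8.77% and 0%, beside 11.9% and 8.19% of all genes tested). With TMM 14 rose and with DESeq2 22, where 853 and 1003 of all genes tested rose. The median log2 difference of the 57 was 0.46, with 21 higher and 0 lower at an unadjusted limma p under 0.05 between blocks. In 28 of the 57 every 11-14 h library lay above every 8-11 h library, against 16.3% of all genes tested. By slope, 2 rose and 0 fell without 8-9 h, 6 rose and 2 fell without 12-13 h, and 2 rose and 2 fell without 13-14 h. ATPsynbeta, a subunit of ATP synthase, had 139, 187 and 186 RPM at 11-14 h, against 49.2, 108 and 74.0 RPM at 8-11 h (limma slope, adjusted p = 0.0174). Of 13 (28 listed) maternal and germ plasm genes 0 rose and 1 fell (0% and 7.69%), the one being CycB3, which is on the cell cycle list too. Of these genes 0 rose and 0 fell without 8-9 h, and 0 rose and 2 fell without 13-14 h. Where a list is given here with 0 genes in a direction, the slopes of edgeR and DESeq2 also gave 0, except that DESeq2 called 1 maternal gene higher.

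**Figure D3:**
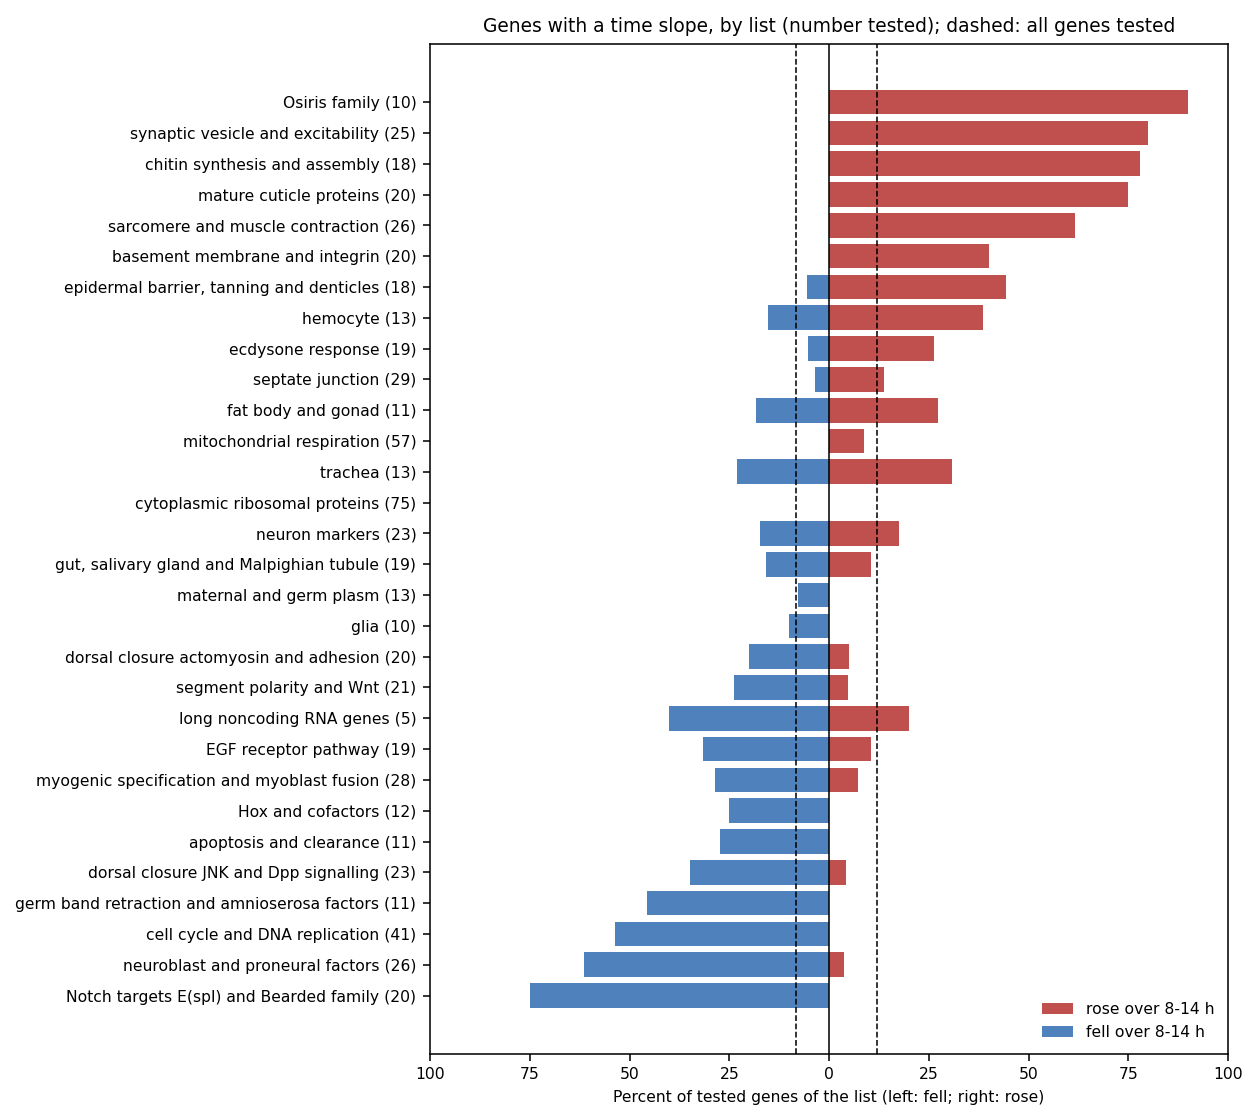
For each gene list, with the number of tested members in parentheses, the percent of them that rose (red, to the right) or fell (blue, to the left) over 8-14 h. Dashed lines mark the 11.9% that rose and the 8.19% that fell of all 6116 genes tested. Osiris, synaptic, chitin and mature cuticle lists stand at 90.0%, 80.0%, 77.8% and 75.0% rising, and the Notch target list at 75.0% falling, all over members that passed the filter. With no filter 12 of 17, 31 of 43, 16 of 25 and 26 of 61 rose, and 15 of 20 Notch targets fell.

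Among genes that rose without overlap between blocks, the largest gains in RPM lay in a few very abundant transcripts. CG13159, on 2R, had 26294, 43795 and 34560.1 RPM at 11-14 h, against 4741, 12546 and 22001 RPM at 8-11 h (limma slope, adjusted p = 0.00654). At 12-13 h this was the most abundant of the genes tested. CG9184, on 3L, had 13736, 18293 and 8288 RPM at 11-14 h, against 1282, 3506 and 6427 RPM at 8-11 h (limma slope, adjusted p = 0.0303). CG14756, on 2R, had 17467, 12621 and 15092 RPM at 11-14 h, against 1786, 4269 and 11276 RPM at 8-11 h (limma slope, adjusted p = 0.0197). The files give no role for these. The gene nur had 5415, 4096 and 7070.1 RPM at 11-14 h, against 506, 1131 and 1164 RPM at 8-11 h (limma slope, adjusted p = 0.00259). CG13159, CG9184, CG14756 and nur, with Gasp, were the 5 largest gains among such genes. The calls of CG9184 and CG14756 were lost in 4 and 2 of 14 settings.

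Among genes that fell without overlap between blocks, the largest losses in RPM were smaller than these gains. Sumo, a small protein conjugated to other proteins, had 3334, 2135 and 1715 RPM at 11-14 h, against 8043, 6373 and 3849 RPM at 8-11 h (limma slope, adjusted p = 0.00081). HmgD, for a chromosomal protein of early embryos, had 2905, 2579 and 1873 RPM at 11-14 h, against 5742, 7342 and 4919 RPM at 8-11 h (limma slope, adjusted p = 0.00594). The noncoding RNA gene lncRNA:marge had 1462, 709 and 542 RPM at 11-14 h, against 4060.4, 3716 and 2514 RPM at 8-11 h (limma slope, adjusted p = 0.000655). Bacc had 2107, 1378 and 1671 RPM at 11-14 h, against 4654, 3883 and 3242 RPM at 8-11 h (limma slope, adjusted p = 0.00525). With N, given above, these were the 5 largest losses among such genes. Of 5 (12 listed) listed long noncoding RNA genes 1 rose and 2 fell (20% and 40%, beside 11.9% and 8.19% of all genes tested). The 2 roX RNAs of the dosage compensation complex moved oppositely. The level of lncRNA:roX1 was 917, 729.8 and 789.8 RPM at 11-14 h, against 2081, 1731 and 1403 RPM at 8-11 h (limma slope, adjusted p = 0.00487). That of lncRNA:roX2 was 229, 281 and 294 RPM at 11-14 h, against 161, 148 and 176 RPM at 8-11 h (limma slope, adjusted p = 0.0248). Their blocks did not overlap, and the call of roX2 was lost in 3 of 14 settings. Among the fits with 1 library fewer, 0 rose and 1 fell without 8-9 h or 13-14 h, and 0 rose and 2 fell without 9-10 h.

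Promoter use was tested in 744 genes with at least 2 TSCs of 10 RPM or more on average. TSCs of the same gene changed by different amounts between blocks in 28 genes (3.76%, limma diffSplice, adjusted p under 0.05), and 153 had an unadjusted p under 0.05. In 26 of the 28 the extreme TSCs differed in the sign of their log2 difference, as in 280 of all 744. The TSC with the higher log2 difference lay upstream of the other in 13 genes and downstream in 15, against 386 and 358 of all tested. The count was sensitive to single libraries, with 0 genes called without 8-9 h, 9-10 h, 12-13 h or 13-14 h, 70 without 10-11 h and 48 without 11-12 h, and edgeR called 78. Shares below are percentages of the reads in those TSCs of a gene that passed the filter.

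In sdt, on the X, an apical polarity gene of epithelia, 2 TSCs on the plus strand exchanged rank (limma diffSplice, adjusted p = 0.00951). The TSC at X:8087224-8087259 supplied 64.8%, 80.0% and 76.4% of the reads at 11-14 h, against 3.51%, 4.61% and 21.8% at 8-11 h. The other, at X:8110131-8110218, lay 22907 bases downstream and had 13.0, 6.84 and 4.74 RPM at 11-14 h, against 82.6, 80.3 and 44.0 RPM at 8-11 h. The gene as a whole had a log2 difference of -1.08.

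Eip75B, given above, switched between TSCs on the minus strand of 3L (adjusted p = 0.00951, limma diffSplice). The TSC at 3L:17992564-17992638 had 32.0, 22.8 and 4.37 RPM at 11-14 h, against 162, 426 and 251 RPM at 8-11 h, and its share was 24.2%, 21.7% and 3.66% of the reads at 11-14 h, against 74.4%, 87.0% and 71.9% at 8-11 h. The TSC at 3L:17954786-17954932, 37706 bases downstream, had 30.8, 36.5 and 84.9 RPM at 11-14 h, against 1.13, 3.16 and 24.8 RPM at 8-11 h. The upstream TSC fell and the downstream one rose (limma slopes, adjusted p = 0.00926 and 0.00218). Of the other TSCs tested, the one at 3L:17997959-17998076 had 9.73, 2.28 and 1.46 RPM at 11-14 h, against 52.6, 41.8 and 25.7 RPM at 8-11 h (limma slope, adjusted p = 0.00108). The one at 3L:17964281-17964301 had 59.6, 43.3 and 28.8 RPM at 11-14 h, against 2.25, 18.9 and 47.5 RPM at 8-11 h (limma slope, adjusted p = 0.121), with no call.

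Other nuclear receptor genes of the ecdysone response were among the 28. In ftz-f1 on 3L, the TSC at 3L:18758812-18758856 supplied 22.6%, 37.1% and 57.7% of the reads at 11-14 h, against 3.72%, 2.39% and 7.83% at 8-11 h. It lies 35643 bases downstream of the other TSC tested, at 3L:18794352-18794499 (adjusted p = 0.0207, limma diffSplice). In Eip78C on 3L, the TSC at 3L:21233426-21233476 supplied 88.4%, 88.9% and 91.2% of the reads at 11-14 h, against 24.3%, 34.7% and 52.0% at 8-11 h (adjusted p = 0.0326, limma diffSplice). The shares of the blocks did not overlap in either gene. These 2 genes were picked from the 28 after their values were seen, since the naming rule covers the 8 with the smallest p.

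Actn and Mef2, which act in muscle, were also among the 28 genes. In Actn on the X, which encodes the alpha-actinin of the Z disc, the TSC at X:1930470-1930704 supplied 74.0%, 79.7% and 87.9% of the reads at 11-14 h, against 12.3%, 27.6% and 48.7% at 8-11 h (adjusted p = 0.0179, limma diffSplice). It lies 5681 bases downstream of the TSC at X:1936227-1936385, which had 93.2, 103 and 70.7 RPM at 11-14 h, against 182, 139 and 126 RPM at 8-11 h. The downstream TSC rose and the upstream one fell. In Mef2 on 2R, 5 TSCs passed the filter (adjusted p = 0.0179, limma diffSplice). The main one, at 2R:5816931-5817316, had 206, 173 and 100.2 RPM at 11-14 h, against 699, 525 and 400.2 RPM at 8-11 h. A minor one at 2R:5831978-5832347 had 9.32, 13.7 and 21.9 RPM at 11-14 h, against 7.88, 5.58 and 8.16 RPM at 8-11 h (limma slope, adjusted p = 0.0812). The other 3 TSCs were lower in every older library than in every younger one, and 2 of them fell. The main TSC remained the largest, with 66.2%, 65.5% and 53.8% of the reads at 11-14 h, against 82.4%, 77.0% and 69.9% at 8-11 h. The call for Mef2 was lost at 25 RPM per TSC (adjusted p = 0.243, in a range of 0.000204 to 0.263 over 12 settings, limma diffSplice), and the calls for Actn and Mef2 both without 8-9 h, 9-10 h, 12-13 h or 13-14 h.

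In the 4 remaining genes of the 8 with the smallest p, a TSC that was not the largest at 8-11 h gained share. Usp47, a ubiquitin protease gene on 3L, had 6.65%, 18.8% and 14.8% of the reads at 11-14 h, against 0.456%, 1.32% and 1.27% at 8-11 h from the TSC at 3L:5747266-5747291 (adjusted p = 0.00951, limma diffSplice). C3G, an exchange factor gene for the small GTPase Rap1, had 7.37%, 13.8% and 20.5% of the reads at 11-14 h, against 1.09%, 1.46% and 2.13% at 8-11 h from the TSC at X:6694724-6694870 (adjusted p = 0.0179, limma diffSplice). Asator, a kinase gene on chromosome 4, had 27.8%, 38.1% and 38.6% of the reads at 11-14 h, against 2.80%, 5.94% and 17.7% at 8-11 h from the TSC at 4:504354-504504 (adjusted p = 0.0179, limma diffSplice). Its largest TSC at 8-11 h, at 4:502522-502649, went to 54.5%, 36.4% and 40.3% at 11-14 h from 85.9%, 80.0% and 64.8%. The TSC of Asator at 4:506575-506661 also gained, with 13.4%, 23.7% and 18.0% at 11-14 h, against 3.29%, 5.64% and 11.3% at 8-11 h. Nt5b, annotated as a nucleotidase gene on the X, had 14.1%, 21.4% and 33.0% of the reads at 11-14 h, against 3.87%, 4.17% and 5.86% at 8-11 h from the TSC at X:18304043-18304191 (adjusted p = 0.0179, limma diffSplice). The shares of the blocks did not overlap in these 4 genes. Of the 28 genes, 9 had a slope call for the gene total.

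**Figure D4:**
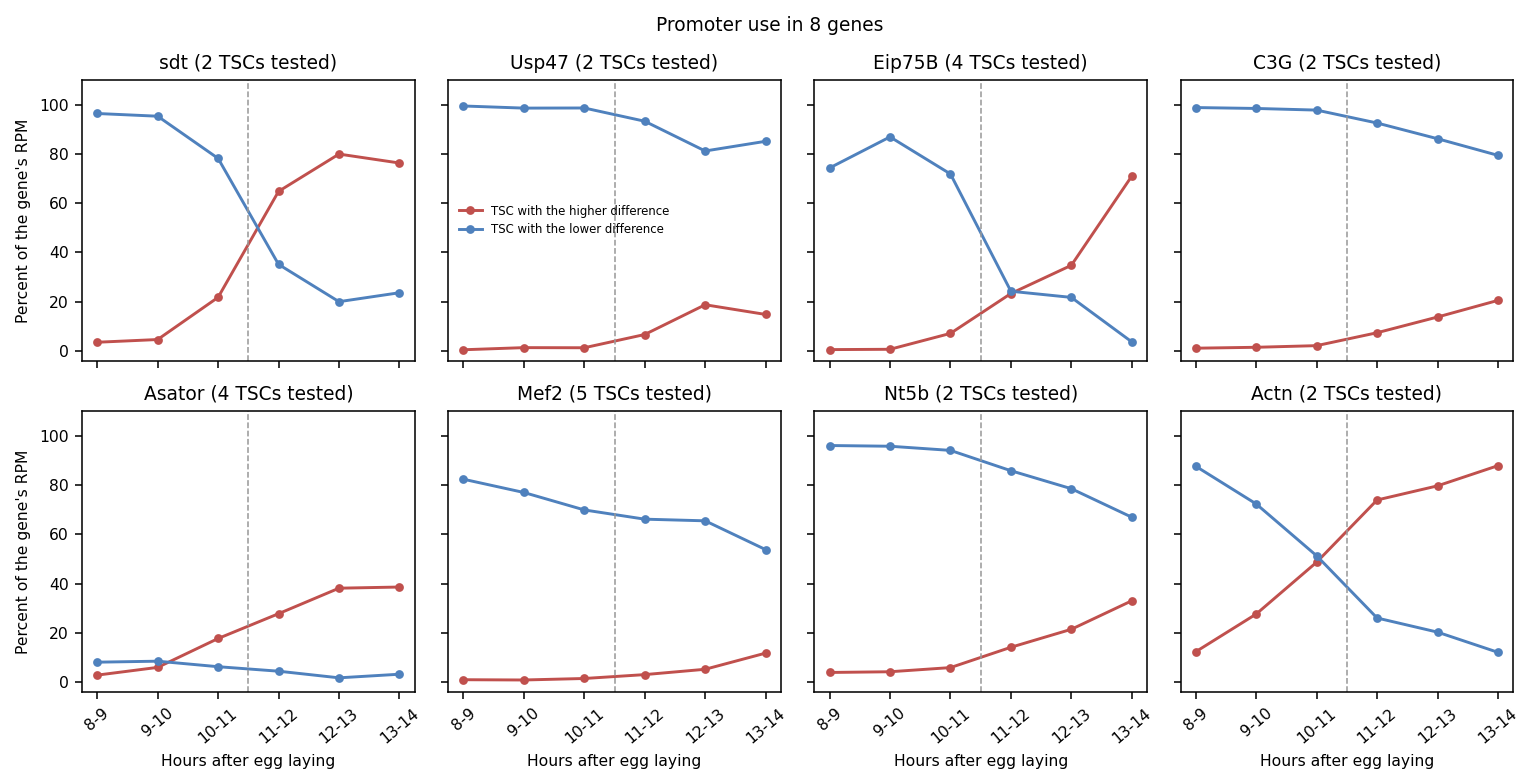
Share of the reads of a gene, in percent of its tested TSCs, from the TSC with the higher (red) and the TSC with the lower (blue) log2 difference in the 6 windows from 8-9 h to 13-14 h, with a dashed line between the blocks, for the 8 genes with the smallest p of the promoter use test. In sdt the rising TSC held a mean share of 73.7% at 11-14 h and 9.96% at 8-11 h.

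Start site clusters that the files assign to no gene were rarer. Of 3595 such TSCs, 100 passed the filter, of which the block test called 0, with 11 higher and 20 lower at an unadjusted limma p under 0.05, while DESeq2 called 15. By the slope 8 rose and 9 fell, beside 11.4% and 8.1% of all TSCs tested. The cluster with the largest rise in log2 difference, RAMPAGEpeak_002786, lies at 3L:24362216-24362219 on the plus strand. The nearest TSC of a gene with a current symbol is that of Snap25, 143941 bases away. TSCs of genes without a symbol were not searched for here or below. It had 24.3, 34.2 and 44.8 RPM at 11-14 h, against 2.25, 7.52 and 20.4 RPM at 8-11 h (limma slope, adjusted p = 0.00362). RAMPAGEpeak_005390, at 2L:20562249-20562441 on the plus strand, lies 23567 bases from a TSC of dia. It had 32.4, 59.3 and 75.4 RPM at 11-14 h, against 6.76, 11.4 and 23.6 RPM at 8-11 h (limma slope, adjusted p = 0.000856). Neither overlapped between blocks.

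Of the other risers, RAMPAGEpeak_014344 at 2R:12732993-12733147 (440 bases from a TSC of Ugt37C1 on the other strand) overlapped between blocks. RAMPAGEpeak_012788 at X:9942044-9942188 and RAMPAGEpeak_002457 at 3L:10319845-10319926 did not. Of those that fell, RAMPAGEpeak_006913 at 2L:20486524-20486647, 8473 bases from a TSC of CG34007, had 22.7, 6.84 and 8.75 RPM at 11-14 h, against 143, 129 and 57.7 RPM at 8-11 h (limma slope, adjusted p = 0.00128). RAMPAGEpeak_022838 at 3R:19510418-19510511, 338 bases from a TSC of CG18754 on the other strand, had 11.8, 50.2 and 8.75 RPM at 11-14 h, against 139, 187 and 141 RPM at 8-11 h (limma slope, adjusted p = 0.0382). Its older libraries spread widely, the highest being the shallow one of 12-13 h. RAMPAGEpeak_015004 at 2R:5755723-5755730, RAMPAGEpeak_001094 at 3L:19555612-19555875 and RAMPAGEpeak_020390 at 3R:5552320-5552430 fell with log2 differences of -1.99, -1.97 and -1.76.

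Over the whole series of 23 windows, most of these changes continued beyond the 2 blocks. Of the 727 genes that rose, 455 were highest after 14 h, 219 within 11-14 h and 53 before 8 h. Of the 501 that fell, 426 were highest before 8 h, 73 within 8-14 h and 2 after 14 h. Genes with their maximum within 11-14 h included CG9184, CG14756, nur, ImpL1, ImpE1, ImpE2, mey and Osi7. Genes that fell and had their maximum at 8-9 h included Mef2, lmd, sing, stg, dap, N and lncRNA:marge. Of the named genes, EcR was highest at 9-10 h and Hr3 at 10-11 h.

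**Figure D5:**
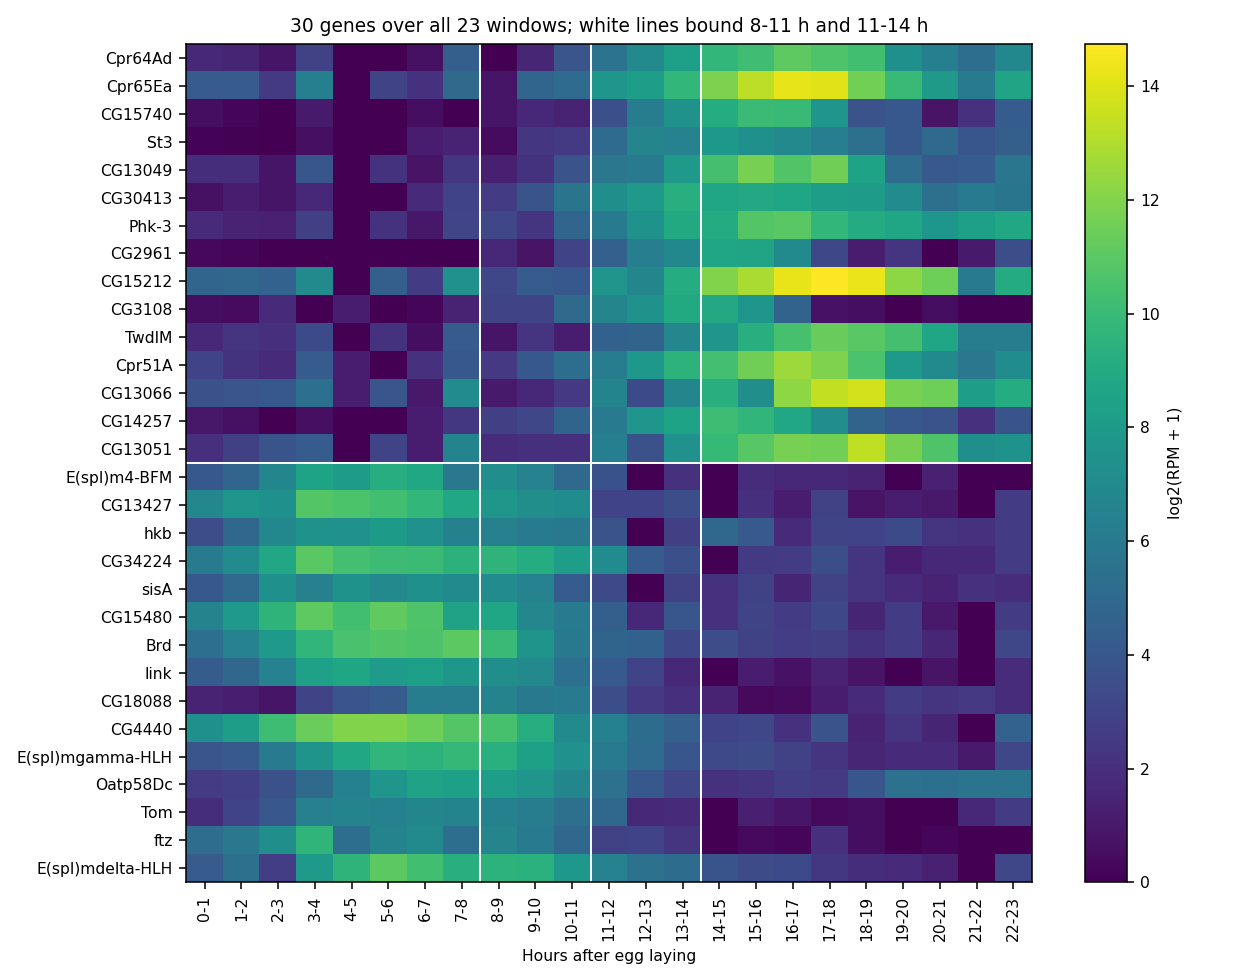
Log2(RPM + 1) of the 15 genes with the largest rise and the 15 with the largest fall in log2 difference, in all 23 windows from 0-1 h to 22-23 h, with white lines at the bounds of the 2 blocks. The risers are highest at 13 h or later, and those that fell are highest at 8-9 h or earlier.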

How the data were processed

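RAMPAGE libraries of 23 one-hour windows were barcoded at reverse transcription, pooled and sequenced as 1 library in 1 lane. The authors mapped reads with STAR to the dm3 assembly with FlyBase annotation release 5.49, called TSCs over the series and deposited RPM per TSC and per gene. The deposited TSC start and end positions, another kind of value, are in release 5 and are given 1-based. The authors' aligned, smoothed Z-scores were not used here. Of the RPM values, 100% were whole multiples of 1 read within 0.001, so reads per library were recovered (438473 to 4119650 in the 6 libraries compared). No genome sequence of release 5 was at hand, so no sequence is shown and motifs were not searched.

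Of 10622 genes and 24730 TSCs, the 6116 and 7110 with a mean of at least 10 RPM over the 6 libraries were tested on log2(RPM + 1) with limma 3.58.1 (trended, robust) in R 4.3.3, between blocks and, as a second test, by a slope over window midpoints, with Benjamini-Hochberg adjustment. Promoter use was tested with diffSplice of limma. Counts recovered from the deposited RPM were tested with edgeR 4.0.16 and DESeq2 1.42.0 as alternatives, besides other pseudocounts and filters, TMM scaling, thinning to the shallowest library, a fit on all 23 libraries and leaving out each library. The scripts were first run on simulated data, which checks the code and not the results. Windows of a block served as replicates, although each is a separate collection of another age. Symbols were matched for 10253 gene IDs, and 369 had none. Listed genes whose current symbol or ID did not match the table were not analysed here.

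Named genes were the 15 largest rises and falls in log2 difference among slope-called genes without overlap and with a mean of at least 25 RPM. The 5 largest gains and losses in RPM were also taken from slope-called genes without overlap. Further named were up to 5 members of each list by adjusted p, with members that define a list's role. So were 5 rising and 5 falling gene-less TSCs, and the 8 genes with the smallest p for promoter use. Cpr47Eg, bcd, osk and vnd were added after their values were seen, as was the use of the slope in naming. The gene lists and the comparison were chosen with earlier results of these data known.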

Additional observations from a re-analysis of the deposited data

How the results depend on the processing

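The block test was the most sensitive result. In place of 1 gene, 1 TSC and 0 gene-less TSCs, limma called 323, 451 and 4 with a pseudocount of 5, 235, 852 and 31 with no filter beyond 1 read, and 103, 114 and 2 after thinning to the shallowest library. DESeq2 called 889, 1015 and 15, a fit on all 23 libraries called 598, 703 and 11, and the slope called 1228, 1390 and 17. With 1 library left out the block test called 0 to 593 genes, 0 to 688 TSCs and 0 to 9 gene-less TSCs, the most without 10-11 h. Slope calls were 625 to 1245 genes, 689 to 1430 TSCs and 8 to 25 gene-less TSCs, the fewest without 8-9 h. With no filter the slope called 2283 TSCs and 97 gene-less TSCs, at 25 RPM or more 876 and 7, and DESeq2 called 27 gene-less TSCs. Promoter use was called in 46 genes at 5 RPM per TSC, in 78 by edgeR, in 128 by slope (chosen after seeing the data) and in 0 to 70 with 1 library left out. The cause of these moves was not tested, except that filters change how many features are tested.

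Of 184 named genes, 157 had a slope call. Over their 2183 values under other settings 2013 kept the call, 170 lost it and 0 reversed. Named genes were largely chosen by a small adjusted p or a large change, so these counts describe them alone. Of all 1228 genes with a slope call, 99.8% kept it with a pseudocount of 5, but 47.2% without the youngest library compared. Those were the highest and lowest shares among the other settings. The share was 60.9% without the oldest library compared and 64.7% after thinning to the shallowest library. All slope results and their alternatives were chosen after seeing the data. No paired analysis was possible because the labels give no replicate numbers that pair windows of the blocks. The depth of 12-13 h limits values of single low genes there, and windows of different age stand in for replicates.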
